A study of Homo sapiens with 4 samples.

Results

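Collagens are the main structural proteins of the extracellular matrix. Each collagen molecule is a triple helix of 3 alpha chains, and every chain is encoded by its own gene. The chains described here were all 44 gene names, of 59384 in the table, that consist of COL, a type number, A and a chain number. They comprise 11 fibrillar chains, 6 chains of the basement membrane network, 5 beaded-filament chains of collagen VI, 10 fibril-associated chains and 12 others. RNA was sequenced from Daoy, an established medulloblastoma cell line, in 2 groups of 2 libraries. The pLKO cells had received PLKO virus as a control (genotype label WT). The shFABP4 cells had received shFABP4 virus (genotype label FABP4 knockdown), directed at the fatty acid binding protein FABP4. Messenger RNA was captured on beads, and the Tn5 transposase was used for fragmentation in library preparation. The labels name neither the hairpin sequences nor separate cultures for the replicates. The p-values below therefore rest on the spread among these few libraries, and that spread may be technical. In such bulk RNA, fewer cells making a collagen and less of its RNA per cell cannot be told apart.

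Fibrillar collagens such as types I, III and V build the cross-striated fibrils of connective tissue, and type V is known for setting fibril diameter. Collagen IV forms the sheet of the basement membrane, and collagen VI forms beaded filaments in the matrix around cells. Chains are modified and folded in the endoplasmic reticulum, exported, trimmed and then cross-linked outside the cell. In normal brain, collagens are mostly found around vessels and in the meninges rather than among neurons.

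The libraries held 8988961 (pLKO 1), 13839885 (pLKO 2), 2539862 (shFABP4 1) and 20431660 (shFABP4 2) counted fragments. FABP4 itself had 1 and 6 fragments in pLKO, 14 in the library labelled shFABP4 1 and 0 in shFABP4 2. The value of the library labelled shFABP4 1 goes against its label, and these few fragments do not check the knockdown. That library also stood apart from the other 3. It held a fragment in 51762 gene names against 22350 to 25560 in the others, and in 367 of 380 olfactory receptor genes, which are not expected to be transcribed outside the nose, against 38 to 68. A background rate was read from 2657 coding genes that were at 0 everywhere else. At those rates background made up 54.6% of its fragments. Each chain's count there is therefore given beside the background expected from exon length and GC content.

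In the pLKO libraries 16 of the 44 chains had a mean of at least 20 fragments. Levels of different chains were compared as CPM per kb, that is fragments scaled to the library total (CPM) and divided by exon length. COL6A2, a chain of collagen VI, was the highest at 27.8 ± 0.620 (SD, n = 2). COL7A1, the anchoring fibril chain that ties epithelial basement membranes to the tissue beneath, followed at 8.32 ± 0.142 (SD, n = 2). COL6A1 was at 5.05 ± 0.252, COL4A2 at 4.65 ± 0.220, COL5A2 at 3.77 ± 0.0907, COL27A1 at 3.41 ± 0.0703 and COL18A1 at 2.56 ± 0.00744 (SD, n = 2 each). In this order the SD ranges of COL6A1 and COL4A2 overlap, and the other neighbours among these 7 lay further apart than their spread. The remaining 9 of the 16 lay between 0.123 (COL12A1) and 1.18 (COL16A1) on the same scale. COL1A1, the main chain of collagen I and the most abundant collagen of skin and bone, was at only 0.474 ± 0.0461 (SD, n = 2).

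**Figure D1:**
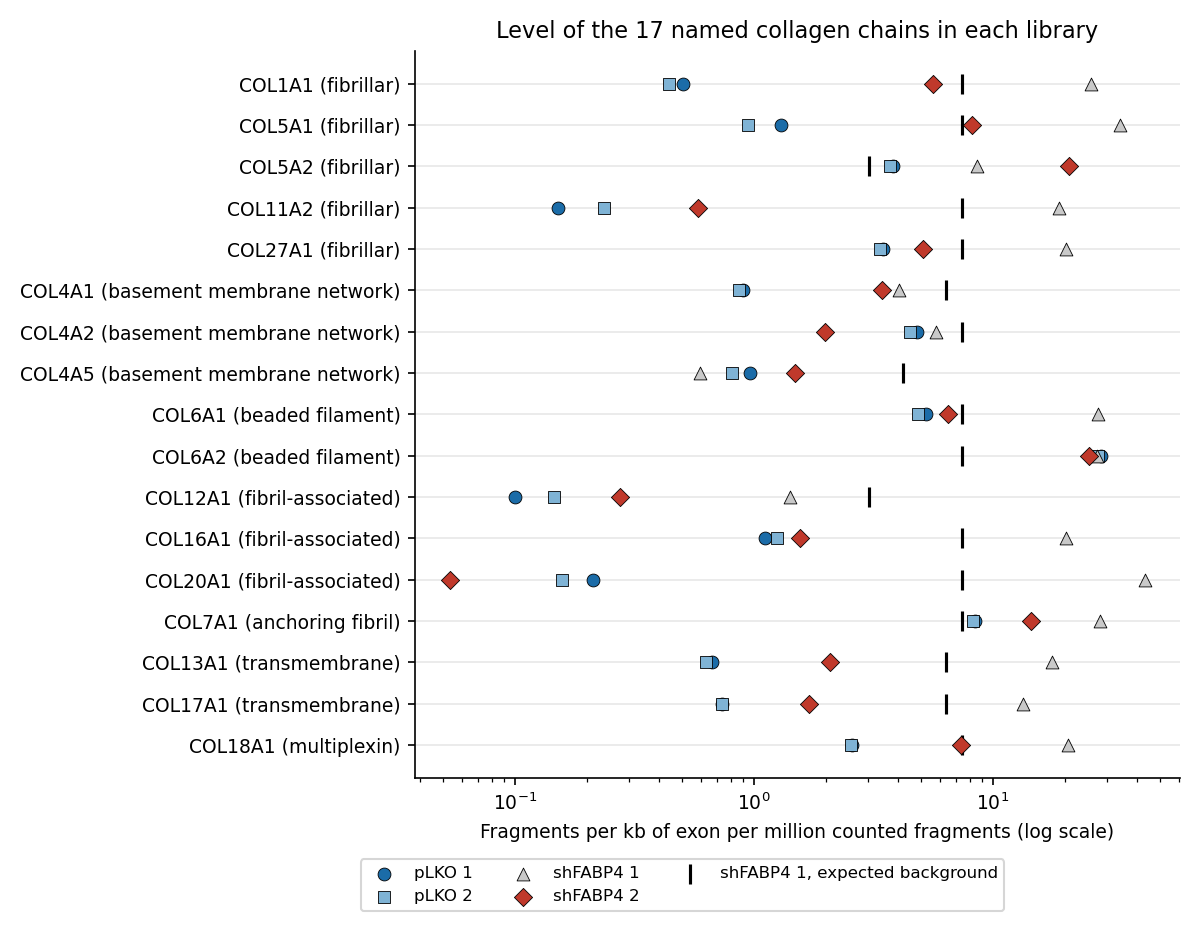
Level of the 17 named collagen chains in each library, in CPM per kb of exon on a log axis, with 1 symbol per library. The vertical tick is the background expected in the library labelled shFABP4 1. COL6A2 is the highest chain in both pLKO libraries and in shFABP4 2, and the triangles of the library labelled shFABP4 1 mostly lie to the right of the other 3 symbols.

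Over all 4 libraries 0 of the 20 chains that could be tested passed an adjusted p of 0.05 (edgeR's quasi-likelihood test, Benjamini-Hochberg adjustment over 14735 genes), and 0% of all genes were called. The chains' adjusted p ran from 0.391 to 0.918. At an unadjusted p under 0.05 there were 7 of the 20 chains, COL1A1, COL5A1, COL11A2, COL4A1, COL13A1, COL17A1 and COL18A1, all higher in shFABP4. Of all 14735 genes 1818 were below it, in either direction. DESeq2 called 6 of the 20 chains higher (COL1A1, COL5A1, COL11A2, COL13A1, COL20A1 and COL6A3), where it called 3.87% of genes higher. Of these, COL11A2 and COL6A3 had pLKO means of only 17 and 12 fragments, and COL20A1 was high in the library labelled shFABP4 1 alone. The median log2 fold change of the 20 tested chains was 2.05, against 0.34 over all tested genes. Of these 20, 4 had a pLKO mean under 20 fragments, and among them COL2A1 passed the count filter only with the library labelled shFABP4 1. The values of that library include its background, so the median is not support for a rise. Among the 16 chains with a pLKO mean of at least 20 fragments, both shFABP4 libraries lay above both pLKO libraries in 12 (22.2% of all such genes) and below in 2 (32.4%). With the expected background subtracted from the library labelled shFABP4 1, these numbers were 10 (18.1%) and 2 (34.0%), and with abundant-gene scaling as well 11 (46.7%) and 1 (13.4%). The chains below in the first of these counts were COL4A2 and COL6A2.

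Chains are long and rich in G and C, with a median exon length of 9.17 kb and a GC content of 55.3%, against 4.91 kb and 48.8% over the tested genes. The background of the library labelled shFABP4 1 rose with GC content, from 3.81 fragments per kb below 40% GC to 18.9 above 60%. The part of background in the counts of that library was not tested beyond the subtraction. Results below are therefore led by shFABP4 2 against the pLKO pair. Only the pLKO pair supplies the spread there, and shFABP4 2 is taken to be no more variable, so the comparison is of these libraries and not of the conditions. It called 66.9% of all 15301 tested genes, 34.2% higher and 32.7% lower. Of the 16 chains with a pLKO mean of at least 20 fragments, 11 were called higher, where 35.7% of such genes were. In the same set 3 were called lower, against 38.4% of such genes. After correction for exon length and GC content 13 were called higher (33.0% of genes) and 2 lower (38.1%). With scaling to abundant genes 14 were called higher (58.2%) and 2 lower (21.1%).

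**Figure D2:**
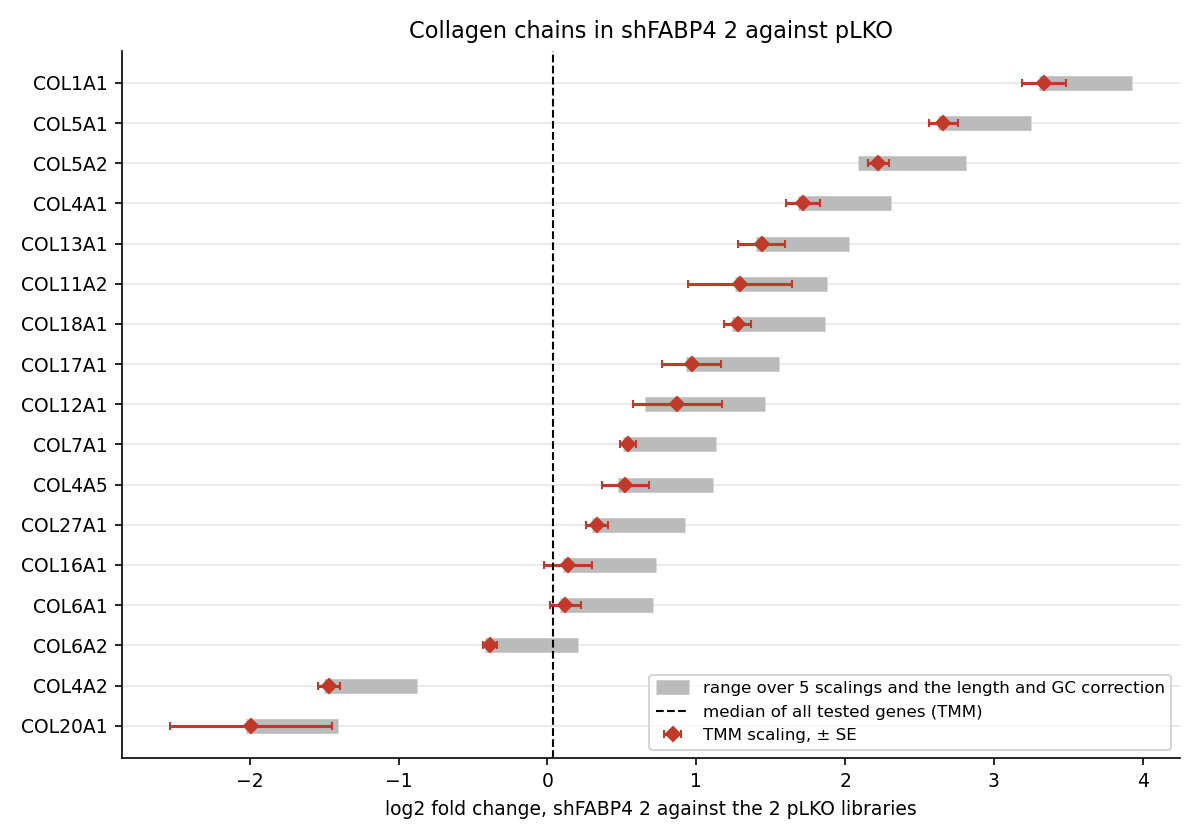
Log2 fold change of the 17 named chains in shFABP4 2 against the 2 pLKO libraries, as the edgeR estimate with its SE (diamonds) and the range over 5 scalings and the length and GC correction (grey). COL1A1, COL5A1, COL5A2 and COL4A1 lie furthest above the median of all tested genes (dashed), COL4A2 and COL20A1 furthest below, and the range of COL6A2 crosses 0.

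The fibrillar chains held the largest differences. COL1A1 (chromosome 17, 50184101 to 50201632, minus strand, GRCh38) had 41 and 55 fragments in pLKO, 585 in the library labelled shFABP4 1 and 1033 in shFABP4 2. Both shFABP4 values lay above both pLKO values. In CPM, COL1A1 was at 4.27 ± 0.415 in pLKO (SD, n = 2) and 50.6 in shFABP4 2, a ratio of 11.8. Its log2 fold change in shFABP4 2 was 3.34 (SE 0.15, adjusted p = 4.7e-33, edgeR), and over all 4 libraries 4.17 (SE 0.73, adjusted p = 0.391, edgeR). In the library labelled shFABP4 1, background alone would give 170 COL1A1 fragments.

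COL5A1 and COL5A2, which assemble into collagen V, differed in the same direction. COL5A1 (chromosome 9, 134641803 to 134844843, plus strand, GRCh38) had 130 and 146 fragments in pLKO, 962 in the library labelled shFABP4 1 (211 expected from background) and 1861 in shFABP4 2. COL5A2 had 252 and 375 fragments in pLKO, 160 in the library labelled shFABP4 1 (56.5 expected) and 3109 in shFABP4 2. In shFABP4 2 COL5A1 was 7.28 times and COL5A2 5.52 times the pLKO mean in CPM. The log2 fold changes were 2.66 for COL5A1 (SE 0.10, adjusted p = 5.49e-32, edgeR) and 2.22 for COL5A2 (SE 0.07, adjusted p = 5.66e-43, edgeR). At 3.77 CPM per kb in pLKO and 20.8 in shFABP4 2, COL5A2 went from below COL6A1, COL4A2 and COL7A1 to the highest chain after COL6A2.

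The count of COL5A2 in the library labelled shFABP4 1 can be set against chains of like GC content. Its GC content of 47.9% is low for a collagen, and its count was 2.83 times the expected background. Barely expressed chains with under 55% GC, 18 in all, lay at 0.125 to 1.43 times theirs. The coding genes behind the background rate spread more widely. Among the 518 of 45 to 50% GC the 95th percentile was 23.2 fragments per kb, and COL5A2, at 21.9 per kb, lay below it. With background subtracted and scaled to the remaining fragments, COL5A2 was at 89.7 CPM in that library, above 28.0 and 27.1 in pLKO and below 152 in shFABP4 2. By trimmed-mean (TMM) scaling without subtraction it was at 41.7, just above pLKO, and with shFABP4 2 left out of the fit, which changes both the scaling and the genes tested, its log2 fold change was -1.05. The direction in that library thus depends on the fit. For COL1A1 and COL5A1, with over 60% GC, the counts of 3.44 and 4.57 times background lie inside the range of 0.976 to 6.80 seen in 9 barely expressed chains of at least 55% GC. The median of those 9 is 1.97, the highest is COL9A3 and the next is COL23A1 at 3.65, so COL5A1 lies above all of them but COL9A3. COL20A1, outside those 9 but with only 21, 24 and 12 fragments elsewhere, lay at 5.81 times, above COL5A1. Among the 281 coding genes behind the background rate with at least 60% GC, the 95th percentile was 58.1 fragments per kb. COL1A1 and COL5A1 lay above it, at 64.9 and 86.2 per kb.

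The sequence before the COL5A1 start is shown because this chain differed strongly and its promoter window was in the reference. The 250 bases upstream of the RefSeq start are given (GRCh38.p14, chr9:134641553-134641802, plus strand, 74.0% GC), outside the exons of COL5A1 in the table, with matches to the GC box GGGCGG on either strand in capitals.
COL5A1 upstream: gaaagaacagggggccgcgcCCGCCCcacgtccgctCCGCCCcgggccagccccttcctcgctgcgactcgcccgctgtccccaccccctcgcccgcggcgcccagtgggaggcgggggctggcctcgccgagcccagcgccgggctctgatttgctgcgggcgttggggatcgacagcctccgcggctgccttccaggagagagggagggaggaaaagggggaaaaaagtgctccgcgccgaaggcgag
The window held 2 GC boxes, 0 CCAAT boxes (CCAAT) and 0 TATA boxes (TATAAA), searched on both strands. Of the 44 chains, 32 had 1 or more windows, and 21 of these held a GC box, 11 a CCAAT box and 7 a TATA box in the 250 bases. Over all 35116 windows of the same length the shares were 42.6%, 32.0% and 10.7%. By window the collagen shares were 54.5%, 27.3% and 18.2% of 44.

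The other fibrillar chains differed less or were nearly absent. COL27A1, a fibrillar chain of cartilage, had 436 and 652 fragments in pLKO, 716 in the library labelled shFABP4 1 (264 expected from background) and 1455 in shFABP4 2. Its log2 fold change in shFABP4 2 was 0.33 (SE 0.07, adjusted p = 4.26e-05, edgeR), a small difference beside that of COL1A1. COL11A2, a cartilage chain, had 10 and 24 fragments in pLKO, 354 in the library labelled shFABP4 1 (139 expected) and 88 in shFABP4 2. Its pLKO mean is under 20 and it was named through its count in shFABP4 2, so no test is given for it.

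COL1A2, the partner of COL1A1 in the common form of collagen I, was not detected in pLKO (0 and 0 fragments, where a count of 0 allows up to 0.334 and 0.217 CPM). It had 1 fragment in shFABP4 2 and 74 in the library labelled shFABP4 1, against 54.5 expected from background. In shFABP4 2 COL1A1 took 99.9% of the 1034 fragments of the pair (lower bound of the exact 95% binomial interval 99.5%). COL3A1, the usual companion of collagen I in soft tissue, had 2 and 6 fragments in pLKO, 9 in the library labelled shFABP4 1 (71.9 expected) and 15 in shFABP4 2. COL2A1, the cartilage collagen, had 14 and 7 in pLKO, 391 in the library labelled shFABP4 1 (3.11 times the expected background) and 0 in shFABP4 2. All intervals and floors given here cover counting error only.

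In the basement membrane network the main chains, COL4A1 and COL4A2, differed in opposite directions in shFABP4 2. They encode the alpha 1 and alpha 2 chains of the most widespread collagen IV molecule, which takes 2 alpha 1 chains and 1 alpha 2 chain. Their genes lie head to head on chromosome 13 and share a promoter region. COL4A1 (110148963 to 110307157, minus strand, GRCh38) had 119 and 175 fragments in pLKO, 150 in the library labelled shFABP4 1 and 1027 in shFABP4 2. COL4A2 (110305812 to 110513209, plus strand) had 832 and 1198 fragments in pLKO, 283 in the library labelled shFABP4 1 and 782 in shFABP4 2. COL4A2 was the higher of the pair in both pLKO libraries and the lower in shFABP4 2.

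In CPM, COL4A1 was at 12.9 ± 0.420 in pLKO (SD, n = 2) and 50.3 in shFABP4 2. COL4A2 was at 89.6 ± 4.24 in pLKO (SD, n = 2) and 38.3 in shFABP4 2. The log2 fold changes in shFABP4 2 were 1.72 for COL4A1 (SE 0.12, adjusted p = 1.16e-22, edgeR) and -1.47 for COL4A2 (SE 0.07, adjusted p = 3.16e-30, edgeR). Over the 5 scalings and the length and GC correction they ran from 1.68 to 2.31 and from -1.50 to -0.88. Over all 4 libraries they were 1.46 and -1.06 (adjusted p = 0.391 and 0.405, edgeR), and COL4A2 turned to 1.39 with abundant-gene scaling, where the median of all genes was 2.43. With shFABP4 2 left out COL4A1 was at -0.054, so its higher level rests on that library. Both counts in the library labelled shFABP4 1 were below the expected background of 238 and 364 fragments.

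The balance of the pair can be read within a library, where no scaling enters. COL4A1 took 12.5% (exact 95% binomial interval 10.5 to 14.8%) and 12.7% (11.0 to 14.6%) of the pair's fragments in the pLKO libraries and 56.8% (54.5 to 59.1%) in shFABP4 2. It took 34.6% (30.2 to 39.3%) in the library labelled shFABP4 1, where both counts lay below the expected background. The pLKO libraries agree within counting error and shFABP4 2 lies far outside it. COL5A1 took 34.0% and 28.0% of the fragments of COL5A1 and COL5A2 in pLKO, 85.7% in the library labelled shFABP4 1 and 37.4% in shFABP4 2. COL6A1 took 16.1% and 15.6% of those of COL6A1 and COL6A2 in pLKO, 51.2% in the library labelled shFABP4 1 and 21.0% in shFABP4 2. This pattern of the pair was noticed in these data and is given as a description.

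**Figure D3:**
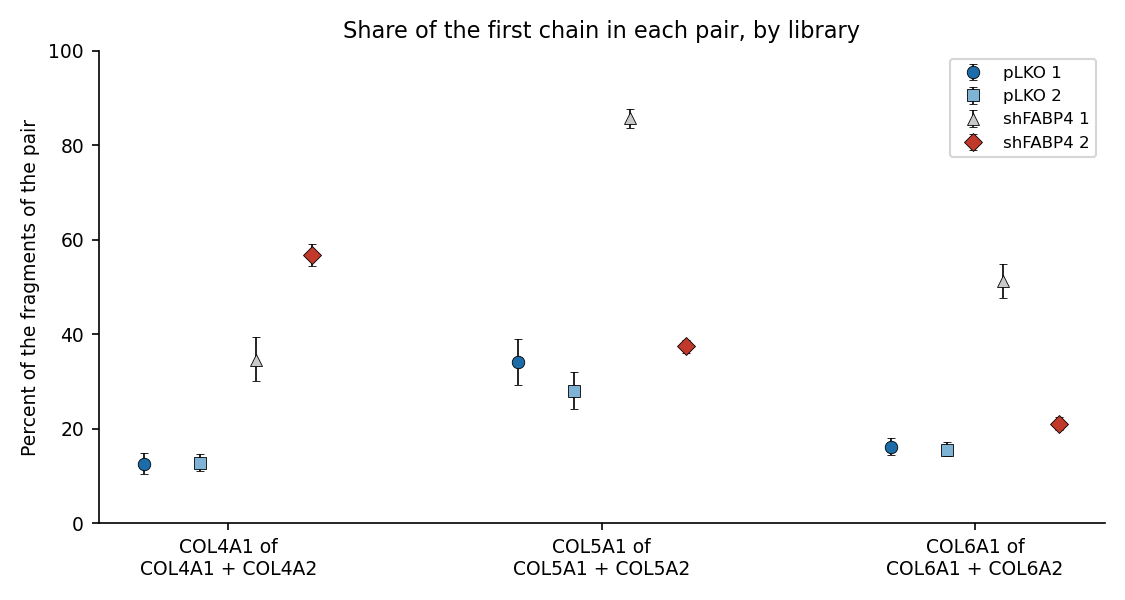
Share of the first chain among the fragments of 3 pairs of partner chains, by library, with exact 95% binomial intervals that cover counting error only. The share of COL4A1 is 12.5% and 12.7% in pLKO and 56.8% in shFABP4 2, while the other 2 pairs differ less between pLKO and shFABP4 2 and more between pLKO and the library labelled shFABP4 1.

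The stretch between the genes is shown because both chains start from it. The RefSeq starts of COL4A1 (110307157) and COL4A2 (110307284) are 126 bases apart. The 78 bases from the COL4A1 start to the nearest annotated COL4A2 exon are printed (GRCh38.p14, chr13:110307158-110307235, plus strand, 78.2% GC), with the CCAAT box and the GC box in capitals.
COL4A1-COL4A2 promoter: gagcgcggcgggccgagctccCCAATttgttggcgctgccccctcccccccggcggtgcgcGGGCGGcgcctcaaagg
It held 1 CCAAT box, 1 GC box and 0 TATA boxes. These matches are letters in a window, and binding was not measured. A longer COL4A2 transcript starts at 110305812 and carries this stretch in an intron. Fragments were counted without strand, and fragments in exons shared by both genes may be lost or misassigned.

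Of the other collagen IV chains, COL4A5, which is joined with COL4A3 and COL4A4 in kidney basement membrane, had 103 and 133 fragments in pLKO, 18 in the library labelled shFABP4 1 and 362 in shFABP4 2. The shFABP4 pair was split, with 1 library below and 1 above pLKO by TMM scaling. Its log2 fold change in shFABP4 2 was 0.52 (SE 0.16, adjusted p = 0.00263, edgeR), and its 18 fragments in the library labelled shFABP4 1 were well below the 126 expected from background. COL4A3, COL4A4 and COL4A6 had at most 4 fragments in a pLKO library and at most 12 in shFABP4 2.

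The abundant collagen VI chains, COL6A1 and COL6A2, had small differences whose call or direction depended on the scaling. COL6A2 had 1354 and 2020 fragments in pLKO, 370 in the library labelled shFABP4 1 (3.67 times the expected background) and 2743 in shFABP4 2. In CPM this was 148 ± 3.31 in pLKO (SD, n = 2), 146 and 134. Its log2 fold change in shFABP4 2 was -0.39 (SE 0.05, adjusted p = 1.72e-10, edgeR) and ran from -0.42 to 0.20 over the scalings and the correction, so no direction can be given. COL6A1 had 260 and 373 fragments in pLKO, 388 in the library labelled shFABP4 1 (104.5 expected) and 731 in shFABP4 2 (log2 fold change 0.12, SE 0.10, adjusted p = 0.316, edgeR). COL6A1 passed as higher with length and GC correction (0.57), total-count scaling (0.36) and abundant-gene scaling (0.71). COL6A3, the third chain of the classical collagen VI molecule, was barely detected, with 11 and 13 fragments in pLKO and 17 in shFABP4 2. In the library labelled shFABP4 1 it had 227, where 229 were expected from background. COL6A5 and COL6A6, which can replace COL6A3, had at most 8 fragments outside that library.

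COL7A1 had 843 and 1267 fragments in pLKO, 792 in the library labelled shFABP4 1 (210 expected from background) and 3267 in shFABP4 2. In CPM it was at 92.7 ± 1.58 in pLKO (SD, n = 2) and at 160 in shFABP4 2 (log2 fold change 0.54, SE 0.05, adjusted p = 1.28e-14, edgeR). With shFABP4 2 left out the value was -0.50, the opposite direction, but the median of all genes in that fit was 2.22. By TMM scaling of all 4 libraries COL7A1 was at 206 in the library labelled shFABP4 1, above 128 and 125 in pLKO. It also lay above both pLKO libraries there with the expected background subtracted. The direction in that library thus depends on the fit. COL18A1, whose C-terminal fragment is endostatin, had 195 and 299 fragments in pLKO, 444 in the library labelled shFABP4 1 (160 expected) and 1271 in shFABP4 2. It was higher in shFABP4 2, at 1.28 on the log2 scale (SE 0.09, adjusted p = 2.17e-21, edgeR). Its relative COL15A1 had 2 and 5 fragments in pLKO and 3 in shFABP4 2.

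The transmembrane chains COL13A1 and COL17A1, which sit in the plasma membrane at sites of adhesion, were both higher in shFABP4 2. COL13A1 had 69 and 100 fragments in pLKO, 514 in the library labelled shFABP4 1 (187 expected from background) and 487 in shFABP4 2 (log2 fold change 1.44, SE 0.16, adjusted p = 5.38e-13, edgeR). COL17A1, a hemidesmosome component of epithelia, had 46 and 71 in pLKO, 236 in the library labelled shFABP4 1 (113 expected) and 243 in shFABP4 2 (0.97, SE 0.20, adjusted p = 1.88e-05, edgeR). The other transmembrane chains, COL23A1 and COL25A1, had at most 4 fragments in any library but the one labelled shFABP4 1.

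Fibril-associated chains bind to the surface of fibrils and were low in Daoy. COL16A1 had 93 and 160 fragments in pLKO, 476 in the library labelled shFABP4 1 (175 expected from background) and 294 in shFABP4 2, and did not pass there (log2 fold change 0.14, SE 0.16, adjusted p = 0.45, edgeR). COL16A1 passed as higher with length and GC correction (0.47), total-count scaling (0.38) and abundant-gene scaling (0.73). COL12A1, found on collagen I fibrils, had 17 and 38 in pLKO, 68 in the library labelled shFABP4 1 (146 expected) and 106 in shFABP4 2 (0.87, SE 0.30, adjusted p = 0.00803, edgeR). With length and GC correction COL12A1 was at 0.66 and no longer passed (adjusted p = 0.0581, edgeR). COL20A1 had 21 and 24 in pLKO, 1204 in the library labelled shFABP4 1 (207 expected) and 12 in shFABP4 2, so the shFABP4 pair was split here too. Its log2 fold change was -1.99 in shFABP4 2 (SE 0.55, adjusted p = 0.000990, edgeR) and 5.82 over all 4 libraries (SE 2.72, adjusted p = 0.396, edgeR).

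The 27 chains not described by the count rule had 0 to 14 fragments in pLKO 1, 0 to 22 in pLKO 2 and 0 to 29 in shFABP4 2, each with a median of 2. In the library labelled shFABP4 1 they had 9 to 621, with a median of 59. Only COL10A1, the hypertrophic cartilage chain, and COL21A1 had 0 in all 3 other libraries, yet 11 and 15 fragments there. Against the expected background the 27 lay at 0.125 to 6.80 times, with a median of 0.819. Among those of at least 55% GC 8 of 9 lay above expectation, and of the 18 with less GC 3 did. COL9A3, a cartilage chain, had 621 fragments against 91.4 expected, with 2, 4 and 10 in the other libraries. All 44 chains had a fragment in that library, against 35 and 39 in pLKO and 36 in shFABP4 2.

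**Figure D4:**
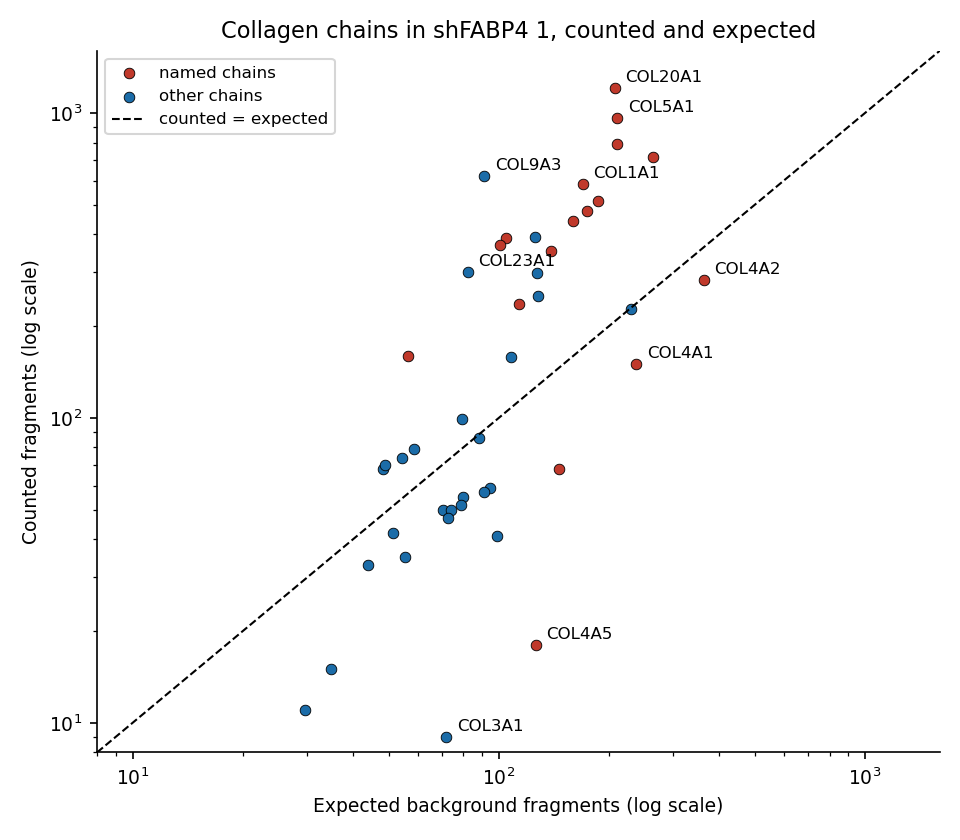
Fragments counted for each of the 44 chains in the library labelled shFABP4 1 against the background expected from exon length and GC content, both on log axes. COL4A1, COL4A2 and COL4A5 lie below the dashed line of equality, and COL20A1 and COL9A3 lie far above it although both have at most 24 fragments in each other library.

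Together the 44 chains summed to 544 and 521 CPM in pLKO and 931 in shFABP4 2. They summed to 4331 in the library labelled shFABP4 1, with 5188 of their 11001 fragments expected from background. The makeup differed as well, counted per kb of exon. Fibrillar chains made up 14.8% and 14.3% of collagen fragments per kb in pLKO and 37.7% in shFABP4 2. Beaded-filament chains made up 52.1% and 52.2% in pLKO and 29.5% in shFABP4 2, and basement membrane chains, at 10.4% in pLKO 1, made up 6.53%. COL7A1 was at 13.1% and 13.3% in pLKO and 13.4% in shFABP4 2. COL5A2 alone went from 5.95% and 5.97% to 19.4%, and COL1A1 from 0.786% and 0.712% to 5.23%. These shares need no scaling between libraries, but shFABP4 2 is 1 library.

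**Figure D5:**
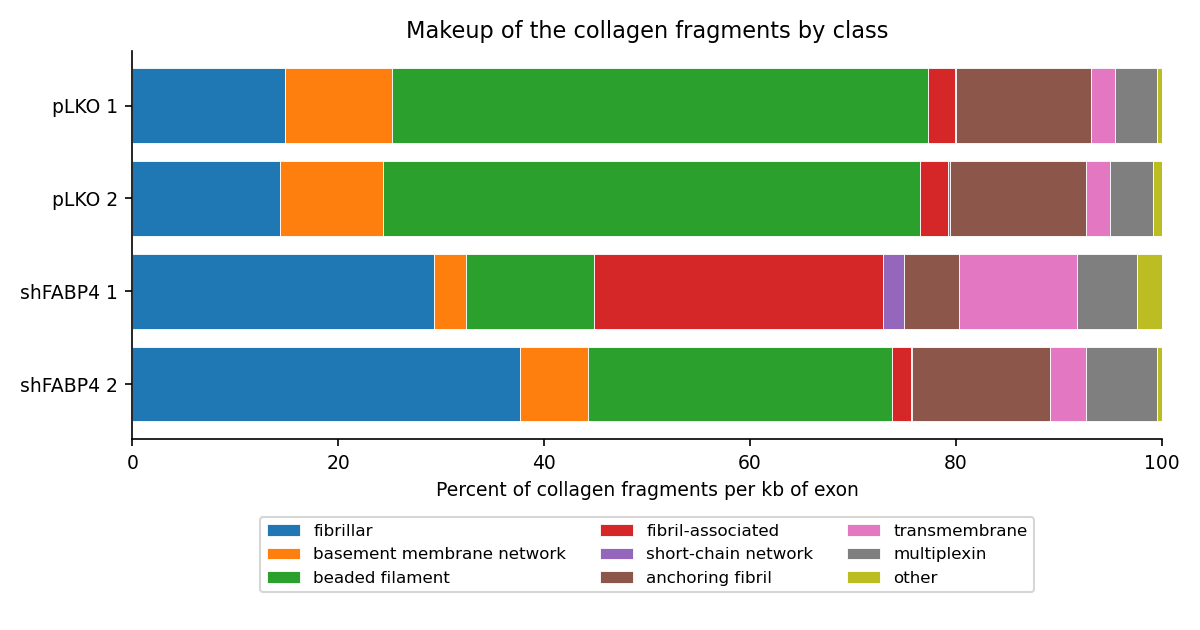
Percent of collagen fragments, per kb of exon, taken by each class of collagen in each library. The 2 pLKO bars are nearly alike, the fibrillar part is 37.7% in shFABP4 2 against 14.8% and 14.3% in pLKO, and the bar of the library labelled shFABP4 1 includes its background.

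Genes that make, export, trim, cross-link or bind collagens were taken from 6 lists, with 62 members in the table. Over all 4 libraries 0 of 50 tested members passed in edgeR (background 0%), with 9 at an unadjusted p under 0.05, beside 1818 of all 14735 genes. In shFABP4 2 against pLKO 40 of 51 were called, 20 higher and 20 lower, beside 66.9% of all genes. For hydroxylation and folding in the endoplasmic reticulum 4 of 19 were called higher and 13 lower (background 34.2% and 32.7%), with a median log2 fold change of -0.42 against 0.04 over all genes. PLOD1, a lysyl hydroxylase, had 2474 and 3950 fragments in pLKO, 151 in the library labelled shFABP4 1 (86.2 expected from background) and 1687 in shFABP4 2 (-2.01, SE 0.05, adjusted p = 8.79e-51, edgeR). P3H1, a prolyl 3-hydroxylase, was at -1.34 (SE 0.10) and FKBP14, a prolyl isomerase, at -1.27 (SE 0.17) in shFABP4 2. P4HA2, a catalytic subunit of prolyl 4-hydroxylase, went the other way, with 144 and 209 fragments in pLKO, 207 in the library labelled shFABP4 1 (78.2 expected) and 1112 in shFABP4 2 (1.57, SE 0.11, adjusted p = 1.66e-22, edgeR).

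For export from the endoplasmic reticulum 7 of 11 members were called higher and 3 lower in shFABP4 2 (background 34.2% and 32.7%). SEC24D and SEC31A, coat proteins of the vesicles that carry procollagen, were at log2 fold changes of 1.78 (SE 0.19) and 1.81 (SE 0.17), while SEC13, another coat protein, had 1028 and 1548 fragments in pLKO and 1371 in shFABP4 2 and was called lower (adjusted p = 1.99e-24, edgeR). SAR1B, the small GTPase of that coat, was at 0.35 (SE 0.15) and turned to -0.14 in 1 alternative. For propeptide cleavage 2 of 8 were called higher and 3 lower, a share near the 66.9% of all genes called. ADAMTS2, the protease that removes the N-propeptide of fibrillar collagens, had 114 and 187 fragments in pLKO, 406 in the library labelled shFABP4 1 (142 expected from background) and 1298 in shFABP4 2 (2.03, SE 0.10, adjusted p = 2.39e-29, edgeR). PCOLCE, which enhances cleavage of the C-propeptide, was at -0.77 (SE 0.11). TLL2 and ADAMTS3, 2 further proteases, had at most 42 fragments outside the library labelled shFABP4 1 and did not pass.

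Of the cross-linking enzymes 3 of 4 tested were called higher in shFABP4 2 and 0 lower (background 34.2% and 32.7%). LOXL2 had 818 and 1276 fragments in pLKO, 170 in the library labelled shFABP4 1 (97.0 expected from background) and 4708 in shFABP4 2 (1.09, SE 0.05, adjusted p = 1.45e-32, edgeR). LOX, the founding lysyl oxidase, was at 1.35 (SE 0.13), LOXL4 at 0.82 (SE 0.31) and LOXL3 at 0.40 (SE 0.65), which did not pass. Of the collagen receptors 4 of 8 were called higher and 1 lower, again near the 66.9% of all genes called. ITGA10, an integrin subunit first known from cartilage, had 364 and 571 fragments in pLKO, 149 in the library labelled shFABP4 1 (66.4 expected) and 3635 in shFABP4 2 (1.87, SE 0.06, adjusted p = 8.13e-41, edgeR). ITGA1 was at 0.45 (SE 0.15) and lost its direction in 1 alternative, ITGA2 at -0.24 (SE 0.15) and ITGA11, with 5 to 14 fragments outside the library labelled shFABP4 1, at -2.17 (SE 0.88). Of the fibril-binding proteoglycans only PRELP of 8 could be tested, and 0 were called.

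Markers were read to see which cells these libraries resemble. The 8 fibroblast markers summed to 22.9 and 23.8 CPM in pLKO and 25.5 in shFABP4 2, with DCN and FAP at 0 in pLKO 2 and shFABP4 2. The 6 endothelial markers summed to 1.11, 0.939 and 1.76. The 8 mesenchymal markers summed to 12325 and 12393 in pLKO and 19384 in shFABP4 2, and among them VIM, an intermediate filament gene, had 13811 and 21475 fragments in pLKO and 131016 in shFABP4 2. The 7 epithelial markers summed to 1957 and 1992 in pLKO and 3429 in shFABP4 2, mostly KRT8 and KRT18. CDH1 and ESRP1 were at 0 in pLKO 1 and shFABP4 2, and KRT19 was at 0 in pLKO 1, while pLKO 2 had none at 0. EPCAM had 2 and 10 fragments in pLKO and 15 in shFABP4 2. Medulloblastoma and granule progenitor markers were low, at 22.1 and 22.6 in pLKO and 114 in shFABP4 2, and ATOH1 and BARHL1, which mark granule progenitors, were at 0 in all 3. Other members were detected and higher in shFABP4 2. GLI1 had 49 and 72 fragments in pLKO and 479 in shFABP4 2, GLI2 17 and 23 against 187, and PTCH1 9 and 14 against 134. The library labelled shFABP4 1 had none of these markers at 0, with summed CPM of 226 (fibroblast), 231 (endothelial), 4384 (mesenchymal), 700 (epithelial) and 621 (medulloblastoma). Background was expected to give 354 of its 574 fibroblast, 444 of its 587 endothelial and 1105 of its 1576 medulloblastoma marker fragments. For the mesenchymal and epithelial markers it was expected to give 538 of 11135 and 372 of 1778. In shFABP4 2 the mesenchymal, epithelial and medulloblastoma sums were higher than in pLKO along with the fibrillar chains. The mesenchymal and epithelial sums of the library labelled shFABP4 1 were lower than in pLKO. Its fibrillar chains summed to 1419 CPM against 98.8 and 91.7, but that sum includes background. Over all 44 chains 5188 of 11001 fragments there were expected from background. The fibrillar chains COL2A1 and COL5A3, nearly absent elsewhere, had 391 and 252 fragments in it. The part of these markers in the collagen differences was not tested.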

How the data were processed

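Daoy RNA was sequenced in 4 libraries, grouped by sample title. The deposited values are raw counts, that is whole fragments assigned to each gene name by the authors. Per the file headers, featureCounts 2.0.0 counted exons of an annotation named for GENCODE 38, dropped chimeric fragments and set no strand. The submitters' processing notes also list FastQC, HISAT, StringTie and GRCh38 with no version. Exon lengths are those of the deposited table. ANK2 was left out because its row is broken.

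The main test was edgeR 4.0.16 (R 4.3.3): the quasi-likelihood F test, robust and two-sided, after TMM scaling and filterByExpr (minimum count 10, minimum total 15), with an adjusted p threshold of 0.05 over all tested genes. DESeq2 1.42.0 was an alternative. The fit was tested on simulated data; at the spread of all 4 libraries it recovered almost none of the changed genes, so the absence of calls there says little. An exact permutation test of 2 against 2 libraries cannot reach 0.05. CPM used library totals.

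GC content came from GENCODE 29. Background in the library labelled shFABP4 1 was the mean rate per kb in bins of GC content. Abundant-gene scaling used 1038 coding genes expected at 5 times that background or more. Chains with a pLKO mean of at least 20 fragments, or at least 50 in shFABP4 2, were named, and in each pathway list the 4 tested genes with the smallest p over all libraries. Members and lists were chosen with earlier results of these data known. Promoter windows came from RefSeq (GRCh38.p14).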

Additional observations from a re-analysis of the deposited data

How the results depend on the processing

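Without a low-count filter 69 genes and 1 chain (COL9A3) were called and the chains' median log2 fold change was 3.60. DESeq2 called 719 genes and 6 chains. With the replicate number as a block 28 genes and 0 chains were called. The deviations of same-numbered libraries correlated at only 0.01. Background enters the deviations of the shFABP4 libraries, so this value cannot show whether the numbers pair the samples. The median over chains was 2.98 with total-count scaling, 4.79 with abundant-gene scaling and 3.56 with background subtracted as well. The median over all genes was 0.34 by TMM and 2.43 with abundant-gene scaling. COL4A5 turned to 0.25, 1.20 and 0.13 in these 3 settings, COL4A2 to 1.39 with abundant-gene scaling, and COL6A2 to 1.27 with it and 1.14 with background also subtracted. Leaving out 1 library at a time, 0 to 23895 genes and 0 to 40 chains were called, and the chains' median ran from 0.54 to 4.14. The lowest counts came without either pLKO library, the highest without shFABP4 2, and without the library labelled shFABP4 1 there were 10242 genes and 16 chains. In the same settings COL5A2 ran from -1.05 to 2.22, COL4A1 from -0.054 to 1.72, COL7A1 from -0.50 to 0.54, COL4A5 from -2.79 to 0.52 and COL20A1 from -1.99 to 5.65. The lowest values of COL5A2, COL4A1, COL7A1 and COL4A5 came without shFABP4 2, where the median over all genes was 2.22. Alternatives added after seeing the data left out the library labelled shFABP4 1 and changed the scaling too. They gave 9780 genes, 17 chains and a median of 0.66 with length and GC correction, and 10078, 16 and 0.51 with RLE. They gave 10290, 16 and 0.56 with upper-quartile, 10615, 18 and 0.79 with total-count, and 11203, 19 and 1.13 with abundant-gene scaling. In that order COL4A5 was at 0.48, 0.49, 0.54, 0.77 and 1.11, and COL20A1 at -1.70, -2.03, -1.97, -1.75 and -1.41. COL6A2 turned to 0.14 with the correction and 0.20 with abundant-gene scaling. With these scalings or the correction COL6A1 and COL16A1 gained a call in 3 of 5 and COL12A1 lost its call in 1. The causes were not tested. Depth limits the 27 chains with few fragments, and background, at 54.6% of fragments, limits every value of the library labelled shFABP4 1.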

Other observations

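Around COL9A3 and COL20A1, near the end of chromosome 20, other genes that were nearly silent elsewhere also had many fragments in the library labelled shFABP4 1. COL9A3 had 128 fragments per kb there and COL20A1 110. Coding genes within 500 kb and with at most 10 fragments in each other library lay at 61.3 to 111 per kb around COL9A3 (3 genes). Around COL20A1 they lay at 0 to 128, with a median of 61.3 (7 genes, of which COL9A3 is 1). The same measure around COL2A1, itself at 58.7, was 2.82 to 27.7 (4 genes), and around COL23A1, itself at 68.8, it was 8.31 to 25.8 (6 genes).

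The spacing of the other head-to-head collagen IV pairs was also read. The RefSeq starts of COL4A3 and COL4A4 on chromosome 2 leave 418 bases between them and those of COL4A5 and COL4A6 on chromosome X leave 379. COL4A5 took 97.2% and 97.1% of the fragments of its pair in pLKO (106 and 137 fragments) and 96.8% in shFABP4 2 (374). Its share was 30.5% of 59 fragments in the library labelled shFABP4 1, where its 18 fragments were below the 126 expected from background. The difference from the COL4A1 and COL4A2 pair was not tested.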
